A study of Mus musculus with 6 samples.

Results

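The clustered histone genes were examined in RNA-sequencing data of tailbud tissue, the posterior end of the embryo that contains the presomitic mesoderm, from mouse embryos with 8 somites. The table was searched for gene symbols starting with Hist1h, Hist2h, Hist3h or Hist4h, and this gave 67 genes of 35506 in all. They comprised 6 genes for H1, 18 for H2A, 18 for H2B, 12 for H3 and 13 for H4, of which 54 belonged to the Hist1 cluster, 10 to Hist2, 2 to Hist3 and 1 to Hist4. The 6 libraries were 3 of genotype Smchd1+/+ (WT) and 3 of genotype Smchd1MommeD43/MommeD43 (MommeD43), each from the tissue of 1 embryo, all on the FVB/NJ background. SMCHD1 is a chromatin protein that takes part in gene silencing, and MommeD43 is an amino acid substitution in it that arose by chemical mutagenesis. The level of Smchd1 mRNA is therefore no check of genotype. Replicate 1 of either genotype was a male and the other replicates were females. Both males had the same mother, whereas the 4 females had different mothers. The tissue field and the titles of the labels name tailbud, and their source field names NSCs (neural stem cells). The former was followed, and the 14 listed tailbud and presomitic mesoderm markers had reads in every library.

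Histones are the proteins around which DNA is wound: H2A, H2B, H3 and H4 form the nucleosome core, and H1 binds the linker DNA between cores. Most clustered histone genes are transcribed in S phase, when new chromatin is assembled, and their mRNAs are unusual among mRNAs in that they normally end in a conserved stem-loop in place of a poly(A) tail. Slbp binds that stem-loop and directs its processing, translation and decay, while Npat switches on transcription of the clusters. The proliferating cells of the tailbud need these proteins at each division. The libraries were made from poly(A) RNA, so that the read level of a clustered histone gene reports the transcripts caught by that selection and not the whole pool of its mRNA.

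The stem-loop was therefore searched for in the annotated transcripts, on the sense strand, as the 16-base motif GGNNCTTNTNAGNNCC, where N is any base. It was present in 46 of the 67 genes (68.7%), against 90 of 21834 other protein-coding genes (0.412%). A stem-loop beyond an annotated transcript end would be missed, so the other histone genes are not shown to lack one. Windows of 26 bases around the motif are given in GENCODE M21 coordinates (GRCm38) for genes the values turn on. Each is written 5′ to 3′ on the strand of its gene, with the motif in capitals.
Hist1h1c (chr13:23739507-23739532, plus strand): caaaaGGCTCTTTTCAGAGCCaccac
Hist1h1e (chr13:23621777-23621802, minus strand): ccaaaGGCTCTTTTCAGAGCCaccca
Hist3h2a (chr11:58955167-58955192, plus strand): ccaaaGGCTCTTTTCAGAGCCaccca
Hist1h2ae (chr13:23570663-23570688, minus strand): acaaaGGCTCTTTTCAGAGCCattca
Hist1h2bk (chr13:22036295-22036320, plus strand): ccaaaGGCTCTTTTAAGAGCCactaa
Hist1h3c (chr13:23745042-23745067, minus strand): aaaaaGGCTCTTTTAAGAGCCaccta
Hist1h4d (chr13:23581945-23581970, plus strand): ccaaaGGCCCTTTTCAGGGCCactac
Hist1h4i (chr13:22040961-22040986, minus strand): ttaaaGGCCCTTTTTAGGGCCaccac
The motif took 8 distinct forms. The form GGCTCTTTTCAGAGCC occurred in 26 genes, namely 3 for H1, 10 for H2A, 8 for H2B and 5 for H3, and in none for H4. All 12 H4 genes with a stem-loop carried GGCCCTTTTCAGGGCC, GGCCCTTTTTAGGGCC, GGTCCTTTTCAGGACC or GGCCCTTCTCAGGGCC, forms that no gene of the other types had.

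A transcript that runs on past its stem-loop can end at an ordinary poly(A) signal. In 23 genes the annotated transcript ended within 100 bases of the stem-loop, and in another 23 it ran more than 100 bases further, with a median of 752 bases. The poly(A) signal AATAAA or its variant ATTAAA was searched for on the sense strand in the last 40 bases of the annotated transcripts, and it was found in 17 of 67 histone genes (25.4%) against 76.2% of other protein-coding genes. The signals of 5 genes are shown, capitalised within 30 bases of the transcript strand. They were chosen because these genes run past the stem-loop or show no stem-loop motif in the annotated transcript, and have reads in most libraries.
Hist1h1c (chr13:23740330-23740359, plus strand): gtgtatgcttctAATAAAaagcgtttagtt
Hist3h2a (chr11:58956785-58956814, plus strand): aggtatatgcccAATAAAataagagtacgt
Hist1h2ae (chr13:23570527-23570556, minus strand): cccagcttctccAATAAAtgggtcaatttt
Hist1h4i (chr13:22040639-22040668, minus strand): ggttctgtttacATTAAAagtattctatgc
Hist2h2be (chr3:96223705-96223734, plus strand): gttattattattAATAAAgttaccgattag
A match to these letters is a description of the sequence and was not tested as a site in use.

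Library totals ranged from 10957916 to 47298348 reads. Levels are given in RPKM, a read count corrected for exon length in kilobases and for the depth of the library, and whole reads were recovered from the deposited log2 RPKM values. Intervals on levels are exact Poisson intervals at 95% and cover counting error only. Genes with enough reads were tested for a difference between genotypes with limma, on log2 RPKM, over 13617 autosomal genes. Markers of neighbouring tissue varied between embryos: the summed level of 10 yolk sac and visceral endoderm markers ranged from 309 to 726 RPM (reads of the gene scaled to library depth, with no correction for length) in WT and from 105 to 1039 in MommeD43, with none of the 10 at 0 in any library. The summed level of 11 blood markers ranged from 10.98 to 357 and from 23.99 to 168 RPM, with up to 3 markers at 0 in a library. Their part in the histone values was not tested. In whole tissue, fewer cells of a type and less RNA per cell cannot be told apart.

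Clustered histone genes were at the low end of the measured range. Together the 67 genes held 2933 reads over the 6 libraries, 12 had no read in any library, 35 were read in some libraries and 20 in all 6. The median level over the pooled libraries was 0.164 RPKM for all 67 genes, tested or not. For autosomal protein-coding genes it was 5.84 RPKM, but over tested genes alone, so the 2 medians cover unlike sets. The tested histone genes ranged from 0.0682 RPKM for Hist1h1d to 1.48 RPKM for Hist1h4i. Only 5 genes reached 1 RPKM: Hist1h4i, Hist3h2a, Hist1h1c, Hist1h2bk and Hist1h3c. The highest of them, Hist1h4i at 1.48 RPKM, lay at percentile 26.8 of the tested genes. The filter on low values left 14 histone genes for the test, with 53 to 452 reads each, and these held 71.4% of the histone reads. The other 53 were not tested, and 41 of them had reads, up to a total of 69 for Hist3h2ba.

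Unclustered histone genes, most of which make polyadenylated mRNAs, formed a contrast of level. Of the 15 listed ones in the table, 11 were tested, at 9.33 to 273 RPKM. H2afz, which encodes the H2A variant H2A.Z, was at 273 RPKM, and H3f3b, one of the genes for the variant H3.3 that is laid down outside S phase, was at 174 RPKM. The other 4, H1fnt, H1foo, Hils1 and H2afb1, which are mostly known from germ cells, were at 0 reads in every library. The lowest tested unclustered gene thus lay above the highest clustered gene, Hist1h4i.

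**Figure D1:**
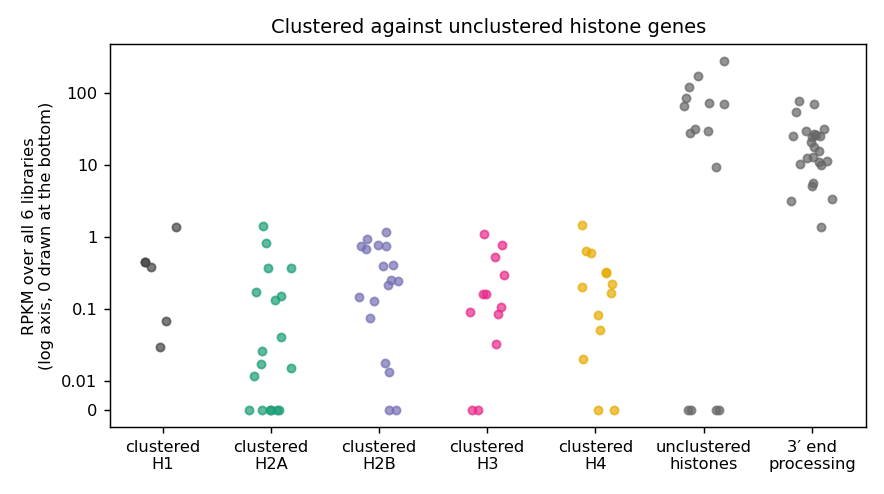
Level of each clustered histone gene by type, of unclustered histone genes and of listed genes that switch on or process histone mRNA. The axis is RPKM over all 6 libraries on a log scale, with genes at 0 drawn at the bottom. No clustered gene is above 1.48 RPKM, whereas 11 unclustered histone genes lie between 9.33 and 273 RPKM and 4 are at 0.

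Within the clustered genes, levels were set beside the annotated transcript end. The 23 genes with an annotated end over 100 bases past the stem-loop had a median of 37 reads and 0.218 RPKM, and 9 of them had enough reads to be tested. Among the 23 genes that end within 100 bases of the stem-loop the median was 10 reads and 0.146 RPKM, and 3 were tested. The 21 genes without the motif in an annotated transcript had a median of 9 reads and 0.155 RPKM, with 2 tested, Hist1h2bc and Hist2h2be. Some of these annotations are short, such as 312 bases for Hist1h4k and 381 for Hist1h2bl. A stem-loop beyond them would not be found. The ranges of the classes overlapped widely: Hist1h2bk, whose transcript ends 30 bases after the stem-loop, was at 1.16 RPKM, while Hist1h1d, with 4884 bases after it, was at 0.0682 RPKM. RPKM divides by the annotated length, and the medians of the classes lay closer together in RPKM than in reads. The classes also differed in how far reads can be assigned: the median share of 75-base windows found in 1 gene alone was 78.1% for genes that run on past the stem-loop, 43.4% for those that end near it and 26.7% for those without the motif, and its part in the read counts was not tested. Of the 17 genes with a poly(A) signal near their end 7 were tested, and of the 50 without one also 7.

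**Figure D2:**
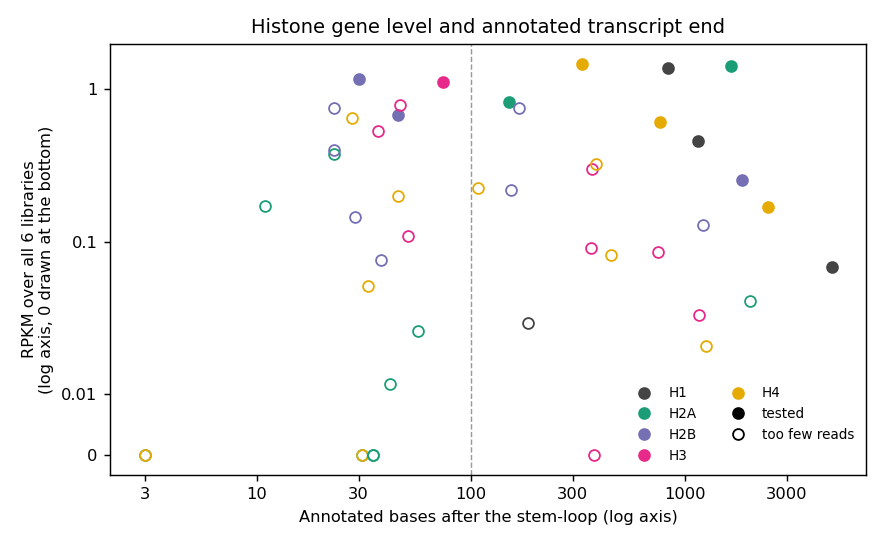
Level of each histone gene with a stem-loop (RPKM over all 6 libraries, log axis, with 0 drawn at the bottom) against the annotated bases after the stem-loop (log axis), coloured by type and filled where the gene was tested. The dashed line marks 100 bases, with 3 tested genes to its left and 9 to its right, and some genes at 0 lie on top of each other.

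Reads can be assigned to these genes only in part, because members of a type are near copies of each other. Of windows of 75 bases, the read length, a median of 57.6% per gene occurred in the annotated transcripts of that gene alone, and 31 of 67 genes were below 50%. Among the tested genes Hist1h2bk was lowest with 27.4% of windows of its own, Hist2h2be was at 100% and Hist1h1c at 93.3%. Exons of 4 tested genes also overlapped another annotated gene. For Hist1h1e, 25.7% of exon bases lay within Hist1h2be or Gm11398 on the same strand, so reads there cannot be assigned to either histone gene alone. How reads that match several copies were counted is not given in the sources used here.

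The summed level of all clustered histone genes was similar in all embryos. It was 18.6, 18.6 and 21.9 RPM in WT replicates 1, 2 and 3, and 18.7, 20.6 and 20.7 in MommeD43 replicates 1, 2 and 3. The groups overlapped, with a mean of 19.694 ± 1.91 (SD, n = 3) in WT and 19.995 ± 1.12 (SD, n = 3) in MommeD43. By type, the linker histones H1 came to 3.63, 3.43 and 4.211 RPM in WT and 4.198, 4.69 and 5.04 in MommeD43, so that only the highest WT and the lowest MommeD43 embryo overlapped. H2A genes came to 4.53, 3.68 and 4.81 in WT and 4.93, 4.08 and 4.28 in MommeD43. H2B genes, with 5.02, 7.07 and 7.58 in WT and 4.65, 5.52 and 7.56 in MommeD43, were lowest in the male of each group. H3 genes were at 2.08, 2.37 and 1.44 in WT and 1.64, 2.33 and 2.52 in MommeD43. H4 genes were at 3.33, 2.03 and 3.85 in WT and at 3.29, 3.95 and 1.30 in MommeD43, where replicate 3 was the lowest of all 6. By cluster, Hist1 genes came to 12.97, 13.3 and 15.4 RPM in WT and 14.1, 15.3 and 14.4 in MommeD43, and Hist2 genes to 1.39, 2.03 and 1.99 in WT and 0.730, 1.50 and 1.38 in MommeD43, with overlap in both. These sums count reads of overlapping genes more than once.

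**Figure D3:**
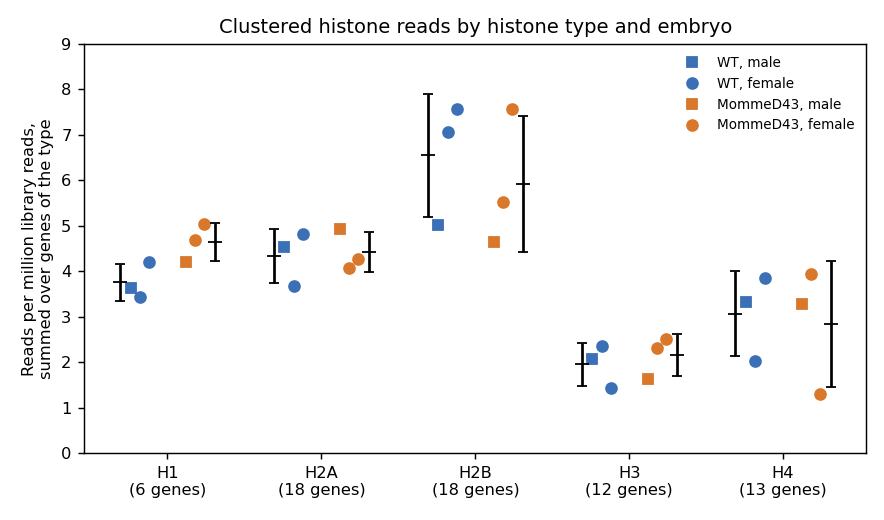
Summed level of clustered histone genes by type in each embryo (RPM), with squares for males and circles for females and bars for the mean ± SD of the 3 embryos of a group. H1 sums lie at 3.43 to 4.211 in WT and 4.198 to 5.04 in MommeD43, and the groups overlap in every type.

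The number of genes at 0 followed depth in part. In WT replicates 1, 2 and 3, 20, 25 and 29 of the 67 genes had no read, and in MommeD43 replicates 1, 2 and 3 the numbers were 30, 17 and 35. The deepest library, MommeD43 replicate 2, had the fewest. MommeD43 replicate 3 had the most, although MommeD43 replicate 1 was shallower. The difference lay in the H4 genes, of which 10 of 13 were at 0 in MommeD43 replicate 3, against 3 to 5 in each of the other libraries.

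No clustered histone gene passed an adjusted p of 0.05 between MommeD43 and WT in limma, and over all 13617 genes the number was 0 as well (0%). At an unadjusted p under 0.05 there was 1 histone gene, Hist1h1e, of 14 tested and higher in MommeD43, against 327 of all tested genes (2.4%), or 1.42% in that direction. On recovered reads, voom also called 0 histone genes, again with 1 at an unadjusted p under 0.05. The 14 genes had a median log2 fold change of 0.05, with 8 higher and 6 lower in MommeD43, beside a median of 0.00 over all tested genes. By type, the median was 0.35 for 3 H1 genes, -0.53 for 2 H2A genes, -0.17 for 5 H2B genes, 0.09 for 1 H3 gene and -0.08 for 3 H4 genes. The H2A median was -0.05 without MommeD43 replicate 3 and 0.39 over the 12 H2A genes that entered without a filter on low values. All of the H2A genes added there lacked reads in some libraries, and such libraries enter at a value set by their depth. For genes without a read in any library, depth alone put MommeD43 higher by 0.36 on the log2 scale. The 0.39 is therefore not read as a change of H2A genes. The H1 median stayed between 0.21 and 0.62 in the alternative fits, whereas the medians of H2A, H2B, H3 and H4 each changed sign in at least 1 of them. Every tested histone gene had an adjusted p of 0.999 in limma.

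**Figure D4:**
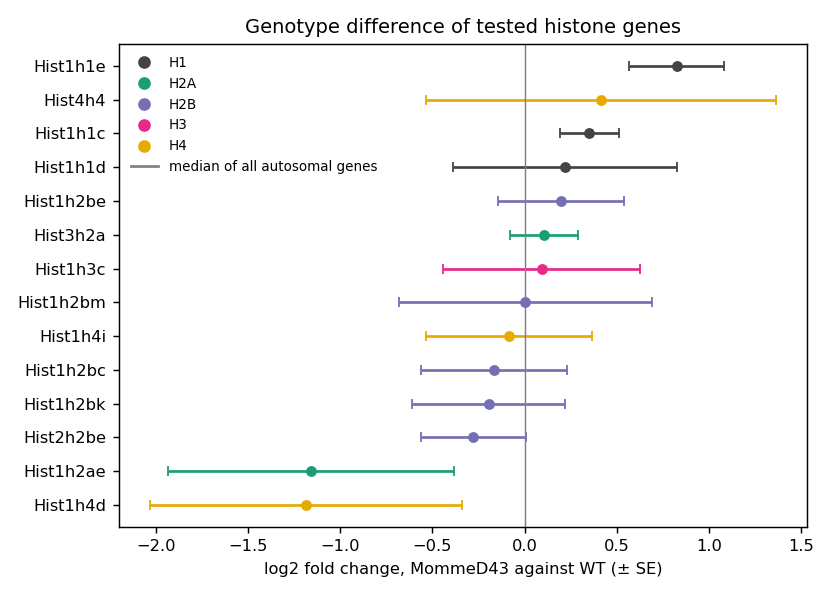
log2 fold change of the 14 tested histone genes, MommeD43 against WT, with bars for the SE and colours for the histone type. Values run from -1.19 for Hist1h4d to 0.83 for Hist1h1e, and none passed an adjusted p of 0.05.

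All 3 tested linker histone genes were higher in MommeD43, none past an adjusted p of 0.05. Hist1h1e, which encodes the somatic linker histone H1.4 (chr13:23620629-23622558, minus strand), was at 0.269, 0.373 and 0.405 RPKM in WT replicates 1, 2 and 3 and at 0.615, 0.581 and 0.633 RPKM in MommeD43 replicates 1, 2 and 3. All 3 MommeD43 embryos were above all 3 WT embryos. The means were 0.349 ± 0.0713 RPKM (SD, n = 3) in WT and 0.610 ± 0.0268 RPKM (SD, n = 3) in MommeD43. The log2 fold change was 0.83 ± 0.26 (SE), or 1.77-fold, with an unadjusted p of 0.012 and an adjusted p of 0.999 in limma. Leaving out each library in turn gave 0.65 to 0.94. These levels rest on 13 to 53 reads per library, part of which cannot be told from those of Hist1h2be.

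Hist1h1c, the gene of linker histone H1.2 (chr13:23738808-23740367, plus strand), was at 1.24, 1.17 and 1.35 RPKM in WT and at 1.64, 1.41 and 1.76 RPKM in MommeD43. Again the groups did not overlap, with means of 1.25 ± 0.0919 RPKM (SD, n = 3) and 1.60 ± 0.179 RPKM (SD, n = 3). Its log2 fold change was 0.35 ± 0.16 (SE), with an unadjusted p of 0.057 and an adjusted p of 0.999 in limma. Hist1h1e and Hist1h1c were the 2 of 14 tested histone genes whose groups were separate and higher in MommeD43, against 3.53% of all tested genes, and 0 of 14 were separate and lower, against 3.55% (7.08% of all genes in either direction). Among genes with too few reads for the test, Hist3h2ba and Hist1h2bl were separate and lower in MommeD43, and Hist1h2ah, Hist1h2bg and Hist1h3d were separate and higher. These orders rest on few reads. Hist1h2bl had 3, 6 and 4 reads in WT and 0, 0 and 1 in MommeD43, and Hist1h2ah had 2, 0 and 0 and 2, 3 and 1. The share of separate groups over all untested genes was not counted, so no excess can be read from them. The spread of Hist1h1c reads between the 6 libraries was that of counting noise, with a chi-square per degree of freedom of 1.01, where counting noise alone gives values near 1.

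Hist1h1d, the gene of linker histone H1.3, was lower than both. It was at 0.0405, 0.0570 and 0.0729 RPKM in WT and at 0.0369, 0.0997 and 0.0720 RPKM in MommeD43, from 3 to 35 reads per library. The groups overlapped, and the log2 fold change was 0.22 ± 0.61 (SE). Hist1h1a and Hist1h1b, for H1.1 and H1.5, were not tested. Hist1h1a had 18, 6 and 5 reads in WT and 1, 14 and 5 in MommeD43, and Hist1h1b had 13, 4 and 8 reads and 1, 14 and 2. Corrected for depth, both had a lower mean in MommeD43, with 0.471 RPKM in WT and 0.346 in MommeD43 for Hist1h1a and 0.451 and 0.242 RPKM for Hist1h1b. Neither gene separated the groups. Hist1h1t, a linker histone gene of the testis, had 4 reads over the 6 libraries.

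**Figure D5:**
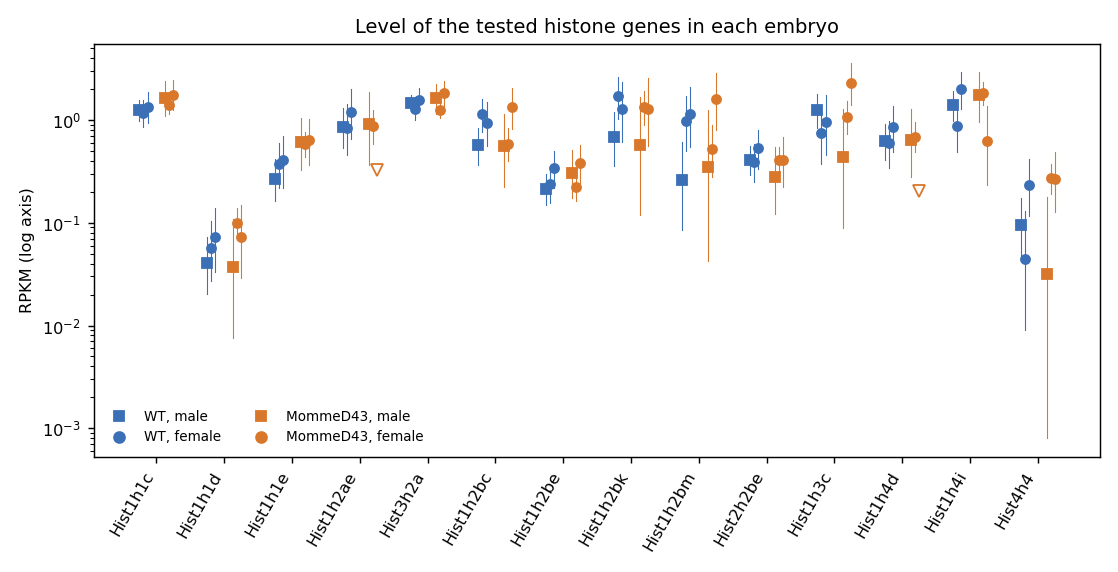
Level of the 14 tested histone genes in each embryo (RPKM, log axis), with squares for males, circles for females and lines for the exact Poisson interval at 95%. Open triangles stand at the 3-read limit of a library without a read, which is 0.326 RPKM for Hist1h2ae and 0.201 RPKM for Hist1h4d in MommeD43 replicate 3. Hist1h1e and Hist1h1c are the genes whose MommeD43 embryos all lie above WT.

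Among the core histones, most H2A reads came from a single gene. Hist3h2a, the H2A gene of the Hist3 cluster on chromosome 11, was at 1.46, 1.28 and 1.57 RPKM in WT and at 1.62, 1.25 and 1.82 RPKM in MommeD43. The lowest and the highest embryo were both MommeD43, and the log2 fold change was 0.11 ± 0.18 (SE), with an adjusted p of 0.999 in limma. It held 452 of the 636 H2A reads, and 33.0% of its exon bases overlapped another gene on the same strand.

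Hist1h2ae, an H2A gene of the Hist1 cluster, was at 0.853, 0.842 and 1.20 RPKM in WT and at 0.907 and 0.871 RPKM in MommeD43 replicates 1 and 2, while MommeD43 replicate 3 had no read. At the rate of the other 5 libraries 8.33 reads would have fallen in that library, and 3 reads would amount to 0.326 RPKM. The log2 fold change was -1.16 ± 0.78 (SE), with an adjusted p of 0.999 in limma, where the library at 0 entered at the value of 0.9 read. Without MommeD43 replicate 3 it was -0.10.

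Hist1h4d, an H4 gene, lies with Hist1h2ae in an interval of 12219 bases on chromosome 13. It was at 0.624, 0.595 and 0.846 RPKM in WT and at 0.642 and 0.687 RPKM in MommeD43 replicates 1 and 2, and it also had no read in MommeD43 replicate 3, where 9.98 reads would have fallen at the rate of the other libraries. The log2 fold change of -1.19 ± 0.85 (SE), with that library again at 0.9 read and an adjusted p of 0.999 in limma, was -0.03 without it. In the 5 libraries with reads Hist1h4d ranged only from 0.595 to 0.846 RPKM. The 4 histone genes between this pair were not empty throughout: in MommeD43 replicate 3 Hist1h2bg had 4 reads, Hist1h3d 2, Hist1h2bf 1 and Hist1h2ad 0. Hist1h2ad had a total of 1 read over the 6 libraries.

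The 16 other H2A genes were not tested. Of these, 6 had no read in any library, among them Hist1h2aa, known from the testis, and the other 10 had from 1 to 27 reads.

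Among the H2B genes 5 were tested, and the groups overlapped in all 5. Hist1h2bk was at 0.688, 1.69 and 1.26 RPKM in WT and 0.575, 1.33 and 1.28 RPKM in MommeD43, with a log2 fold change of -0.19 ± 0.42 (SE). Hist1h2bc was at 0.567, 1.14 and 0.937 RPKM in WT and 0.553, 0.585 and 1.32 RPKM in MommeD43, with a log2 fold change of -0.17 ± 0.39 (SE). Hist1h2bm was at 0.261, 0.969 and 1.15 RPKM in WT and 0.348, 0.525 and 1.60 RPKM in MommeD43, with a log2 fold change of 0.00 ± 0.69 (SE). In all 3 the male was the lowest embryo of its group, in WT and in MommeD43. With Hist1h1d, 4 of 14 tested histone genes showed this order, which was noticed after the values were seen, against 14.6% of all tested genes, and in 0 of 14 the male was the highest of both groups, against 11.7%. The order rests on few reads in the MommeD43 male, the shallowest library: 3 of Hist1h2bk, 7 of Hist1h2bc, 2 of Hist1h2bm and 3 of Hist1h1d. The WT male had 12, 24, 5 and 11. A difference between sexes as such was not tested, and the males also share a mother.

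Hist2h2be and Hist1h2be were steadier. Hist2h2be, the only tested gene of the Hist2 cluster on chromosome 3, was at 0.407, 0.388 and 0.528 RPKM in WT and 0.279, 0.412 and 0.408 RPKM in MommeD43. The groups overlapped, with a log2 fold change of -0.28 ± 0.29 (SE) and an adjusted p of 0.999 in limma. Its reads varied least of the tested histone genes, with a chi-square per degree of freedom of 0.554. Hist1h2be was at 0.215, 0.238 and 0.338 RPKM in WT and 0.308, 0.224 and 0.378 RPKM in MommeD43, with a log2 fold change of 0.20 ± 0.34 (SE). Of the 13 untested H2B genes, Hist3h2ba had the most reads, 69, and was described after its values were seen. It was at 1.33, 0.689 and 0.784 RPKM in WT and 0.446, 0.482 and 0.498 RPKM in MommeD43, from 3 to 30 reads per library. All 3 MommeD43 embryos were below all 3 WT embryos. The share of untested genes with such an order was not counted, so no excess can be read from it. Hist2h2bb had 53 reads, with all of its exon bases overlapped by a gene on the opposite strand and 59.3% overlapped on the same strand. Of its 75-base windows 0% were its own, so these reads cannot be assigned to it alone. Hist1h2ba, an H2B gene known from the testis, had no read in any library.

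H3 was represented by Hist1h3c alone among tested genes. It was at 1.26, 0.739 and 0.955 RPKM in WT and at 0.435, 1.07 and 2.30 RPKM in MommeD43, where the male was the lowest and replicate 3 the highest of all 6 embryos. The log2 fold change was 0.09 ± 0.54 (SE), with an adjusted p of 0.999 in limma. Within the male pair it was -1.53 and within the females 0.90. The WT male had 29 reads and the MommeD43 male only 3, the number taken as the limit of a library without a read. Its exact Poisson interval ran from 0.0896 to 1.27 RPKM. The male pair is 1 embryo of each genotype, so the spread in this fit comes from the females alone and the males are assumed to vary like them. On that assumption the difference of -2.44 ± 0.66 (SE) between the male pair and the females had an unadjusted p of 0.008 and an adjusted p of 0.290 in limma. No histone gene passed 0.05 in that comparison of the male pair with the females, against 37 of all tested genes (0.272%), and Hist1h3c was the only one at an unadjusted p under 0.05, against 10.8% of all tested genes. Of the untested H3 genes, Hist1h3g had 62 reads, Hist1h3a 42 and Hist1h3e 37, and 2 had none.

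The other tested H4 genes pointed in different directions. Hist1h4i, the highest clustered gene, was at 1.39, 0.873 and 1.99 RPKM in WT and 1.76, 1.83 and 0.631 RPKM in MommeD43. Its lowest value, like the zeros of Hist1h4d, was in MommeD43 replicate 3, with 6 reads, and the log2 fold change was -0.08 ± 0.45 (SE). Hist4h4, the single gene of the Hist4 cluster on chromosome 6, was at 0.0954, 0.0444 and 0.231 RPKM in WT and 0.0319, 0.273 and 0.267 RPKM in MommeD43, with a log2 fold change of 0.42 ± 0.95 (SE). It varied most of the tested histone genes, with a chi-square per degree of freedom of 4.98. Over all 14 genes the median of that measure was 2.11, against 2.40 for 2666 other autosomal genes with 53 to 452 reads.

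Genes that switch on or process histone mRNA had levels of 1.39 to 77.0 RPKM, and 0 of the 23 tested passed an adjusted p of 0.05 in limma. Slbp was at 23.9, 23.1 and 23.1 RPKM in WT and 22.3, 25.3 and 25.6 RPKM in MommeD43, with a log2 fold change of 0.06 ± 0.07 (SE). Npat was at 10.6, 11.1 and 9.95 RPKM in WT and 10.9, 9.55 and 9.21 RPKM in MommeD43, with a log2 fold change of -0.10 ± 0.09 (SE). Casp8ap2, which encodes a partner of NPAT in histone locus bodies, was at 17.0, 18.3 and 19.7 RPKM in WT and 17.0, 17.4 and 17.0 RPKM in MommeD43, with a log2 fold change of -0.10 ± 0.07 (SE). All 3 overlapped between groups, with an adjusted p of 0.999 in limma. Of the 23 tested genes of this list, 14 were higher and 9 lower, with a median log2 fold change of 0.00 and 0 at an unadjusted p under 0.05.

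The listed groups around the histone genes also held 0 genes past an adjusted p of 0.05 in limma. Unclustered histone genes were higher in 10 of 11 cases, by a median of 0.03 on the log2 scale. Histone chaperones, which carry histones to DNA, were higher in 9 of 19 and had a median of 0.00. S phase genes were higher in 33 of 48, with a median of 0.02, and mitosis genes were lower in 15 of 20, with a median of -0.04. These 4 lists held 1 gene at an unadjusted p under 0.05, Cenpf of the kinetochore, with a log2 fold change of -0.21 ± 0.08 (SE) and an adjusted p of 0.999 in limma. Tailbud markers were higher in 9 of 13, with a median of 0.02 and 1 gene at an unadjusted p under 0.05, the segmentation clock gene Hes7 at 0.47 ± 0.20 (SE), also with an adjusted p of 0.999. The 8 tested blood markers had a median of -0.79 with 7 lower, and the 10 yolk sac markers a median of -1.11 with all 10 lower, none at an unadjusted p under 0.05.

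RNAs without a poly(A) tail were looked at as a measure of how much such RNA entered the libraries. Of 37 listed, 9 were in the table and only Rmrp, the RNA of a processing ribonuclease, had enough reads to be tested. It was at 2.24, 2.26 and 5.14 RPKM in WT and at 1.30, 4.59 and 0.544 RPKM in MommeD43, with a log2 fold change of -0.94 ± 0.69 (SE) and an adjusted p of 0.999 in limma. The groups overlapped. The embryo with the highest Rmrp, WT replicate 3, also had the highest summed histone level, 21.9 RPM, and the embryo with the lowest, MommeD43 replicate 3, had the next highest, 20.7. Beside the H4 genes, the embryos with the highest Rmrp, WT replicate 3 and MommeD43 replicate 2, had the highest H4 sums, 3.85 and 3.95 RPM. The embryo with the lowest Rmrp, MommeD43 replicate 3, had the lowest H4 sum, 1.30 RPM, with no read of Hist1h2ae and Hist1h4d. The other embryos did not keep this order. MommeD43 replicate 1, with 1.30 RPKM of Rmrp, had an H4 sum of 3.29 RPM, and WT replicate 2, with 2.26 RPKM, had 2.03 RPM. Rmrp had 2 reads in MommeD43 replicate 3 and 4 in MommeD43 replicate 1. The part of RNA selection in these values was not tested. Rpph1 and Scarna13 had 62 and 50 reads and were not tested. In contrast to Rmrp, both were higher in MommeD43 replicate 3 than in MommeD43 replicate 1. Rpph1 was at 1.20 against 0 RPKM, from 5 against 0 reads, and Scarna13 at 0.834 against 0.332 RPKM, from 3 against 1. Neither order can be told from counting noise at so few reads.

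Promoters of the histone genes were compared by their letters, since most members are transcribed at the same time of the cell cycle. RefSeq promoters (250 bases before to 50 after the start, GRCm38.p6) were matched for 61 of 67 genes, and motifs were searched for on both strands, whether or not they overlapped other motifs. The octamer ATTTGCAT, a target of OCT1 at H2B genes, was present in 7 of 16 H2B and 7 of 17 H2A promoters and in 0 of the H1, H3 and H4 promoters, against 1.97% of 27025 promoters. Some H2A and H2B genes lie head to head, such as Hist1h2ae (minus strand, from 23571220) and Hist1h2bg (plus strand, from 23571396). Promoter windows of such a pair can overlap, and a match can then count for both genes. CCAAT was present in 52 of 61 histone promoters against 41.1% of all. It occurred in all of the H1, H2A, H2B and H3 promoters and in 3 of 12 H4 promoters. TATAAA was present in 35 of 61 (57.4%) against 15.7%. CCAAT was thus rarer in H4 promoters than in those of the other types, and a match is not evidence of binding.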

How the data were processed

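RNA-sequencing libraries of tailbud tissue from 3 WT and 3 MommeD43 embryos were grouped by their labels. Per the labels, libraries were made from total RNA with a stranded mRNA kit. According to the study's methods, 75-base single-end reads were mapped to GRCm38.p6 with HISAT2 2.0.5 after trimming with Trim Galore 0.4.4, and quantified with SeqMonk. The authors deposited log2 RPKM per gene, with means per group that were not used. The number of unassigned columns was 0.

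Identifiers of 35555 of 35591 rows matched GENCODE M21, which gave exon lengths. Genes without a read sat at 0.9 read, which gave library totals, and 99.0% of 105978 higher values were whole reads within 0.02. Genes without a read in any library differed by 0.36 on the log2 scale between groups because of depth and were left out. Libraries held 10957916 to 47298348 reads, and 3 reads were taken as the limit of a library without a read.

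The filter on low values asked for 0.497 CPM, which is 10 reads at the median library total, in at least 3 libraries, and for 15 reads or more over all libraries. Autosomal genes (13617) were tested with limma 3.58.1 in R 4.3.3, with a mean-variance trend, two-sided, and adjusted by Benjamini-Hochberg. The male pair was compared with the females in a separate fit that had its own coefficient for every combination of sex and genotype. Other steps used Python 3.11.15. Tested on simulated data, the fit called 92% of 200 genes changed 2-fold among 13617, with 4 calls among unchanged genes. The changed genes were drawn from all tested genes, and every gene was given the spread of genes with many reads. The tested histone genes held only 53 to 452 reads in all, so this share does not apply to them.

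Members, gene lists and tests were chosen with earlier results of these data known. Named genes were the 3 tested genes of highest mean RPKM per type, the 5 of smallest unadjusted p in each direction, tested genes of Hist2, Hist3 and Hist4, Slbp, Npat and Casp8ap2, up to 3 genes per list at an unadjusted p under 0.05, and the 3 highest RNAs without poly(A). Others are named as examples chosen after their values were seen. Each library was a separate embryo, and the mean chi-square per gene between library pairs was above that of sampling noise.

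Alternatives were pseudocounts of 0.1 and 1 RPKM, trimmed-mean and median-ratio scaling, no filter and a stricter filter (30 reads), sex as a covariate, females alone, the replicate block, each library left out, voom with and without quality weights, and histone genes without overlapping exons. A subset with at least 90% of windows in 1 gene of the annotation was added after seeing the data, in place of the planned subset by windows of the genome, which was not run.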

Additional observations from a re-analysis of the deposited data

How the results depend on the processing

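No clustered histone gene passed an adjusted p of 0.05 under any of the 17 alternative fits. The number at an unadjusted p under 0.05 was 0 to 7, and it was highest without a filter on low values. That fit tested 55 histone genes, and 573 of all genes in it were at an unadjusted p under 0.05. A library without a read enters that fit at a value set by its depth. For genes without a read in any library, depth alone put MommeD43 higher by 0.36 on the log2 scale. The 7 is therefore not read as an excess among histone genes. The median log2 fold change of the tested histone genes was 0.05 and ranged from -0.06 to 0.19 when each library was left out, within the SD of 0.27 between libraries. It was 0.22 over the 5 genes with at least 90% of windows in 1 gene of the annotation and -0.04 over the 10 genes without overlapping exons. Females alone gave -0.05 for the histone genes and called 10 genes of all those tested, among them 5 yolk sac markers.

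By the labels both embryos numbered 1 are males of the same mother, while those numbered 2 and 3 have different mothers, and deviations of same-numbered embryos correlated by -0.03, 0.17 and -0.17, so the number was not taken as a pairing. With the replicate number as a block the median was 0.05, 0 histone genes passed 0.05 and 307 genes of all were at an unadjusted p under 0.05, against 327 without it.

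Of 20 named genes that were tested, 12 kept their direction under every alternative that tested them, and none passed 0.05. The stricter filter tested only 2 histone genes, Hist1h1c and Hist3h2a. Directions turned when each library was left out for Hist1h1d (-0.10 to 0.62), Hist1h2bc (-0.57 to 0.058), Hist1h2bk (-0.56 to 0.20), Hist1h2bm (-0.67 to 0.47), Hist1h3c (-0.49 to 0.71), Hist1h4i (-0.39 to 0.42), Hist3h2a (-0.012 to 0.26) and Hist4h4 (-0.16 to 1.44). Voom turned Hist1h2bk to 0.085, Hist1h4i to 0.14 and Hist3h2a to -0.014, and with quality weights it gave 0.13 for Hist1h4i and -0.46 for Hist1h2bm. Hist1h2bm was also -0.20 in females alone and -0.0043 with a pseudocount of 0.1 RPKM. The cause was not tested. Tested genes held 53 to 452 reads over 6 libraries, and at 0 to 69 reads 53 genes could not be tested. SEs of the fold changes reached 0.95 on the log2 scale for Hist4h4, whose reads also varied beyond counting noise. The planned subset by windows unique in the genome was not run, since no genome sequence was used here.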
